A study of Saccharomyces cerevisiae with 6 samples.

Results

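D8B is a strain of the budding yeast Saccharomyces cerevisiae labelled as lacking its thiol peroxidases, and its transcriptome is set here against that of the wild-type strain Wt-M11. The members are the 4 libraries titled D8B (2) and Wt-M11 (2), of 6 libraries in the series, chosen by title. All features with the status OK were used, 7051 of 7126, and the 6925 with a mean of at least 1 FPKM over the 6 libraries were tested. Fragments per kilobase, scaled by all mapped fragments (FPKM), is the unit of every level given below. The other pair of libraries, D8A, is a further null strain that serves to show which changes of D8B were not seen in it.

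Wild type is labelled S288c and MAT a. Its alleles are ade2-1 of adenine synthesis, leu2-3 of leucine synthesis, ura3 of uracil synthesis, trp1-1 of tryptophan synthesis, his3-11,15 of histidine synthesis and can1-100 of the arginine permease, and it is marked GAL and [phi+]. It carries HIS3 and KanMX6 in the intergenic region between YKL006C-A and YKL006W, and its source label calls it monosomic for chromosome XI. D8A and D8B carry one and the same genotype label, MATa with his3, leu2, met15 and ura3, and deletions written tsa1:KAN, tsa2:LEU2, dot5:MET15, ahp1:HIS3, prx1:URA3, gpx2:HYG, gpx1:URA3, gpx3:KAN and srx1:NAT. What sets D8A and D8B apart is not in the labels used here. All strains grew in YPD, rich medium with glucose, and polyA RNA was sequenced. The comparison is thus between strains that differ in auxotrophic markers as well as in the deleted genes, and the labels do not name separate cultures behind the replicates, so each p-value speaks only of the spread between these libraries. In bulk RNA, fewer cells expressing a gene and less RNA per cell cannot be told apart.

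Thiol peroxidases (peroxiredoxins and glutathione peroxidase homologues) reduce hydrogen peroxide and organic peroxides at a reactive cysteine, and thioredoxin or glutathione restores them. In yeast they also pass the peroxide signal to transcription factors such as Yap1, which induces thioredoxins and other defence genes. Peroxide attacks iron-sulphur clusters, which links this chemistry to iron handling and to respiration. Whether it has a part in the changes described below was not tested.

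The deleted genes served to check the labels. PRX1, GPX1 and GPX2 were listed at 0 in both D8B libraries, and HYR1, which the labels call GPX3, was at 0 in both against 324 and 308 FPKM in wild type. TSA1 had 2029 and 1723 FPKM in wild type and 8.03 and 7.77 in D8B. AHP1, DOT5 and TSA2 were at most 1.64 FPKM in D8B. SRX1, encoding sulfiredoxin, went against its label, with 52.8 and 76.8 FPKM in wild type and 654 and 584 in D8B (limma adjusted p = 0.000761). The libraries labelled D8B therefore match their genotype at 8 of 9 deleted genes, and D8B below means the libraries so labelled. Depth, estimated from the interval bounds in the files, was 9.15 M and 10.1 M fragments in wild type, 14.1 M and 10.6 M in D8B, and 4.02 M and 8.05 M in D8A. Of the marker genes, ADE2 (1.66), HIS3 (1.81) and TRP1 (1.19) passed as higher in D8B on the log2 scale, URA3 (-1.21) and MET17 (-2.44), the MET15 of the labels, passed as lower, and LEU2 (0.07) and CAN1 (0.65) did not pass. ADE2 and HIS3 lost the call without wild-type replicate 2, TRP1 and URA3 without either wild-type or either D8B library (limma adjusted p up to 0.240), and TRP1 shares 265 bp with YDR008C.

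In D8B against wild type, 339 of 6925 features had a limma adjusted p under 0.05, which is 4.9%. Of these, 84 were higher (1.21%) and 255 lower (3.68%) in D8B. Among features of 300 bp or more, 302 of 6177 passed (4.89%). Changes are differences of mean log2(FPKM + 1), given with their standard error (SE), and the median over all features tested was 0.06. Both D8B libraries lay above both wild-type libraries in 2078 features (30.0%) and below both in 1795 (25.9%). At an unadjusted p under 0.05, 1317 features differed (19.0%), 555 higher (8.01%) and 762 lower (11.0%). These shares are the background for the counts of gene groups that follow. Of the 339 calls, 82 were kept whichever library was left out, and 89 were kept without wild-type replicate 2, the omission that cost most. A fit of the D8B and wild-type libraries alone called 126 higher (1.82%) and 340 lower (4.91%).

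**Figure D1:**
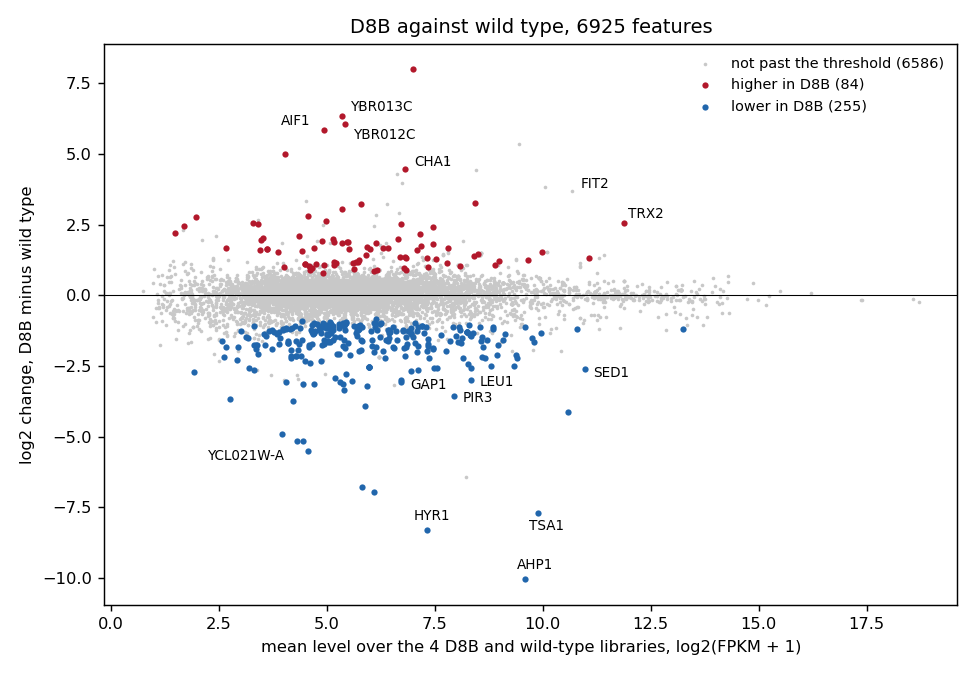
Each point is a feature, with its mean level over the 4 D8B and wild-type libraries in log2(FPKM + 1) on the x axis and its log2 change, D8B minus wild type, on the y axis. Red and blue points are the 84 higher and 255 lower features past the limma threshold, with some genes of the text named.

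The largest rises are given first, with the levels of D8A beside those of CHA1. D8A has its own comparison with the same wild-type libraries. None of the genes named in this paragraph passed between D8B and D8A in limma. CHA1, a serine and threonine deaminase that breaks these amino acids down, had 7.46 and 10.004 FPKM in wild type and 196 and 235 in D8B. It rose by 4.48 ± 0.25 (SE; limma adjusted p = 9.94e-05), and D8A held 304 and 423 FPKM. AIF1, the yeast homologue of apoptosis-inducing factor, was at 0 and 0.106 FPKM in wild type and at 63.8 and 54.7 in D8B, and COS12, from a family of similar subtelomeric genes, held 34.2 and 27.5 FPKM in D8B and was listed at 0 in wild type (limma adjusted p = 1.96e-05 and 4.22e-05). IZH4, a membrane protein of zinc homeostasis, rose by 3.21 ± 0.39, and the uncharacterised YDR274C by 3.04 ± 0.31 (limma adjusted p = 0.00396 and 0.00234). GAS2, a glucan-modifying enzyme otherwise known from spore walls, rose by 2.79 ± 0.27, from 4.25 and 5.40 FPKM to 30.3 and 50.8 (limma adjusted p = 0.00176).

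The largest falls included PIR3, a cell wall protein linked to glucan, which had 367 and 546 FPKM in wild type and 35.5 and 38.6 in D8B, a change of -3.56 ± 0.24 (SE; limma adjusted p = 0.000289). D8A lay at 31.0 and 32.2 FPKM, close to D8B. YNR066C (-3.35), YPR078C (-3.15), YCR101C (-3.15) and YCR099C (-3.91), all without an assigned function in RefSeq, and ECM12 (-3.13) also fell. YLR302C, next to MET17 and sharing 12 bp with it, had 24.0 and 50.8 FPKM in wild type and was listed at 0 in both D8B and both D8A libraries. Reads of overlapping features cannot be told apart, because no source used here states the use of strand, and YPR078C, ECM12 and YCR099C share 356, 106 and 29 bp with neighbours. All genes named in this and the preceding paragraph kept their calls when any single library was left out.

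Most genes of iron uptake were higher in both D8B libraries than in both wild-type libraries. Budding yeast takes up iron through a reductase, ferroxidase and permease system at the cell surface and through carriers of iron bound to siderophores, under the activators Aft1 and Aft2. Of 23 genes of uptake at the cell surface and vacuole, 19 lay apart as higher and 1, SMF1, as lower, against 30.0% and 25.9% of all features. The median change was 0.86 against 0.06 over all features. Only ARN2 passed as higher and only SMF1 as lower in limma over all features (8.70% of the list against 4.9% of all features). In FIT2, FIT3, FET3, FRE1 and ARN1, D8A replicate 1 lay above and D8A replicate 2 below both wild-type libraries, and both enter the spread of that fit. At an unadjusted p under 0.05, 12 were higher and 1 lower, against 8.01% and 11.0% of all features. In the fit of D8B and wild type alone, 9 passed as higher, against 1.82% of all features. These were FET3, FTR1, FRE1, ARN1, ARN2, SIT1, ENB1, FIT2 and FIT3. Only SMF1 passed as lower in that fit, against 4.91% of all features.

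The bases upstream of FIT2 and FIT3 are shown for the size of their differences, which did not pass in the fit of all libraries, and those of ISU2 as a gene that passed. Capitals mark TGCACC, the core bound by Aft1, searched on both strands (GGTGCA on the other), in the bases from 300 to 101 before the coding start, read 5′ to 3′ on the gene's strand from the RefSeq R64 genome.
FIT2, chrXV:1059231-1059430, plus strand: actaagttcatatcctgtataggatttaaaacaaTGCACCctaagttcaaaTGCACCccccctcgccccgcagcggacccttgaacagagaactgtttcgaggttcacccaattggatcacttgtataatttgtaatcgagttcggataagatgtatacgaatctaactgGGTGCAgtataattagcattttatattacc
FIT3, chrXV:1061156-1061355, minus strand: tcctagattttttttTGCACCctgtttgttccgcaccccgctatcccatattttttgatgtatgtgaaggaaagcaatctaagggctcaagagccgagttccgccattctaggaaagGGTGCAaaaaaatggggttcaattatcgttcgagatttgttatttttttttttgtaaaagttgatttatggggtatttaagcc
ISU2, chrXV:762185-762384, minus strand: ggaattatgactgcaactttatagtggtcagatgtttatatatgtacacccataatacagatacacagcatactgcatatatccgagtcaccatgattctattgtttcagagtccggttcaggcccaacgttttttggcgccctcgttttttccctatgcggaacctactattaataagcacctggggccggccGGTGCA
FIT2 holds 3 such matches, FIT3 2 and ISU2 1. Over the 300 bases before the coding start, TGCACC was found in 14 of 23 iron uptake genes (60.9%), in 7 of 17 iron saving and storage genes (41.2%) and in 411 of 5912 protein-coding genes tested (6.95%). A match is a description of letters, and ARN2 has none in this window.

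The cell wall mannoproteins FIT2 and FIT3, which hold siderophore iron, had the largest differences. FIT2 (chromosome XV, 1059531 to 1059992) had 177 and 296 FPKM in wild type and 2403 and 3669 in D8B, a difference of 3.69 ± 1.08 (SE; limma adjusted p = 0.108, and 0.00507 with D8B and wild type alone). FIT3 had 107 and 150 FPKM in wild type and 1139 and 2868 in D8B, 3.82 ± 1.19 (limma adjusted p = 0.130 and 0.00988). In D8A, replicate 1 was above wild type in both genes (921 and 443 FPKM) and replicate 2 below it (55.3 and 20.2). Neither gene passed in the fit of all libraries, although the D8B and wild-type libraries did not overlap.

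The 4 siderophore carriers were also higher in both D8B than in both wild-type libraries. ARN2 had 22.5 and 38.5 FPKM in wild type and 136 and 219 in D8B, and rose by 2.51 ± 0.56 (SE; limma adjusted p = 0.0474). That call was lost without either wild-type or either D8B library (limma adjusted p up to 0.218), and ARN2 shares 233 bp with YHL046W-A. ARN1, SIT1 and ENB1 had differences of 1.84, 1.25 and 1.36, with adjusted p of 0.154, 0.412 and 0.182 in limma over all libraries and of 0.00933, 0.0371 and 0.0216 with D8B and wild type alone.

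In the reductive system, FET3, the multicopper ferroxidase, had 97.3 and 137 FPKM in wild type, 229 and 37.1 in D8A, then 362 and 539 in D8B. FTR1, the iron permease that works with FET3, had 195 and 192 FPKM in wild type, 133 and 95.0 in D8A, then 378 and 377 in D8B. Against wild type FTR1 differed by 0.96 ± 0.24 (SE; limma adjusted p = 0.0669), and against D8A by 1.74 ± 0.24 (limma adjusted p = 0.0369), the only iron uptake gene past the threshold between the null strains. Over the 23 genes, 21 were higher in both D8B than in both D8A libraries, against 19.7% of all features. The call of FTR1 against D8A was lost without either wild-type or either D8B library and with centred or quantile-normalised libraries. It was also lost in the fit of D8B and D8A alone, without the filter on low values and with the replicate number as a block. FRE1, a surface ferric reductase, had 99.5 and 115 FPKM in wild type and 254 and 348 in D8B. The low-affinity iron transporter FET4 (0.16) and FRE4 (0.34) did not lie apart from wild type. SMF1, a broad divalent metal transporter known for manganese, fell by 1.15, from 46.7 and 59.3 FPKM to 24.1 and 22.4 (limma adjusted p = 0.0328, lost without either wild-type or either D8B library).

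Among 18 genes of iron saving and storage, 3 rose, ISU2, MRS4 and LSO1 (YJR005C-A in the files), 1 fell, VHT1, and the median was -0.04. Over all features 1.21% rose and 3.68% fell. ISU2, a scaffold for iron-sulphur cluster assembly, had 104 and 110 FPKM in wild type, 122 and 125 in D8A, then 266 and 253 in D8B, a rise of 1.27 ± 0.20 (SE; limma adjusted p = 0.0122). Its partner ISU1 had 270 and 316 FPKM in wild type and 180 and 178 in D8B and did not pass (-0.71, limma adjusted p = 0.145). MRS4, the mitochondrial iron carrier, rose by 0.96 ± 0.20, from 75.4 and 73.2 to 154 and 137 FPKM, with D8A at 79.7 and 71.0 (limma adjusted p = 0.0360). LSO1, a short gene annotated for iron deprivation, rose from 9.09 and 5.87 to 35.3 and 71.5 FPKM (2.62 ± 0.56, limma adjusted p = 0.0398). TIS11, which promotes the decay of messages for iron-using proteins, had 26.9 and 40.0 FPKM in wild type and 100.3 and 131 in D8B and did not pass (1.77, limma adjusted p = 0.237, and 0.0159 with D8B and wild type alone). VHT1, the biotin permease, fell by 1.14 (limma adjusted p = 0.0347). Each of these 4 calls was lost without either wild-type library or without D8B replicate 2, and ISU2, MRS4 and VHT1 also without D8B replicate 1 (limma adjusted p up to 0.336). ISU2 shares 108 bp with YOR225W. AFT1 (0.68) and AFT2 (-0.39) themselves did not pass.

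**Figure D2:**
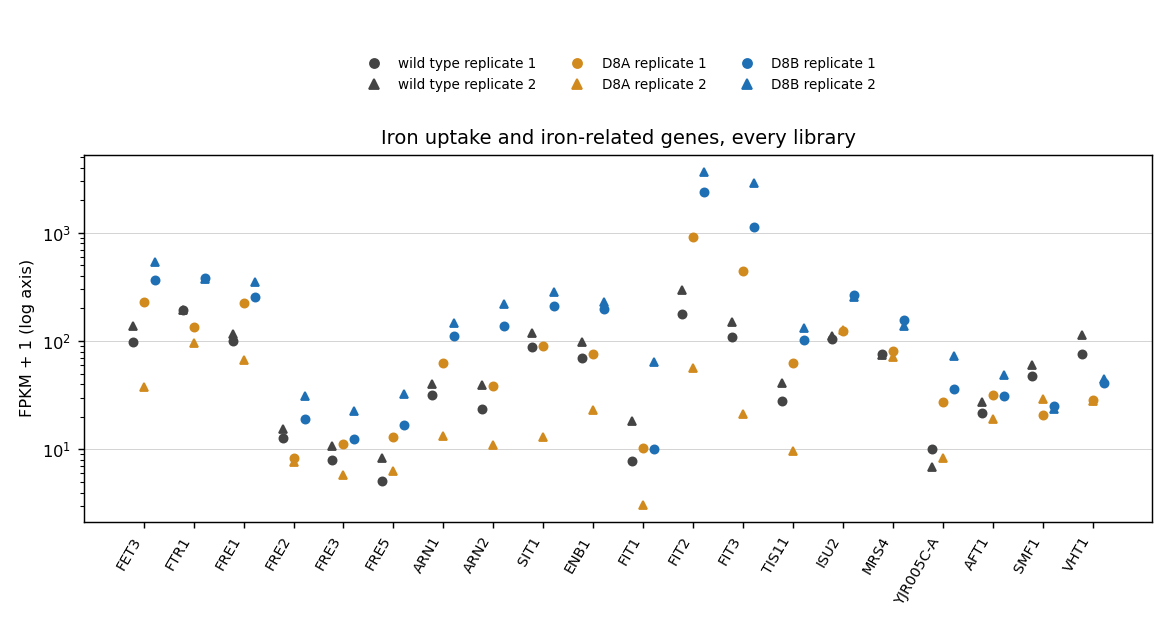
FPKM + 1 on a log axis for 20 genes of iron uptake, saving and storage, with a point for each of the 6 libraries (circles replicate 1, triangles replicate 2). For FIT2 both D8B libraries, at 2403 and 3669 FPKM, lie above the other 4, while D8A replicate 1 (921) and replicate 2 (55.3) lie on both sides of wild type.

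Nuclear genes of the respiratory chain were lower in D8B. This chain passes electrons from NADH and succinate through cytochromes to oxygen, and its genes are activated together by the Hap complex when glucose is scarce. Of 45 genes of the chain and the ATP synthase, 9 fell and 0 rose, against 3.68% and 1.21% of all features. Their median was -1.02. In both D8B libraries 44 lay apart as lower (SDH3 was the exception), against 25.9% of all features. At an unadjusted p under 0.05, 32 were lower and 0 higher, against 11.0% and 8.01% of all features. With D8B and wild type alone 24 passed as lower, against 4.91% of all features. By group, 4 of 10 dehydrogenase genes fell (median -1.01), 3 of 11 of complex III and cytochrome c (-1.33) and 2 of 9 of complex IV (-1.19). Of 15 ATP synthase genes 0 passed in limma, 5 were lower at an unadjusted p under 0.05 and 15 of 15 lay apart as lower (median -0.55).

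The bases upstream of SDH1 and COX6 are shown as those of a dehydrogenase and of a cytochrome c oxidase subunit that fell. Capitals mark CCAAT, the core bound by the Hap complex, searched on both strands (ATTGG on the other), in the same window from 300 to 101 before the coding start of the RefSeq R64 genome.
SDH1, chrXI:171230-171429, minus strand: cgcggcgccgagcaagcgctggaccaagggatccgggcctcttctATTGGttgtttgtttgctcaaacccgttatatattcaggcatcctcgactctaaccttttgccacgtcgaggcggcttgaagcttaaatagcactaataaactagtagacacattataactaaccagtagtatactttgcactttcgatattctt
COX6, chrVIII:209405-209604, plus strand: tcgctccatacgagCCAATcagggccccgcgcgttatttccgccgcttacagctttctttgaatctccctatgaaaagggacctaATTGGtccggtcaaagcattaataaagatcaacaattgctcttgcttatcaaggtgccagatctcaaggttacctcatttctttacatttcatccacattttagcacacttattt
Over the 300 bases before the coding start, CCAAT was found in 39 of 45 genes of the chain and the ATP synthase (86.7%) and in 2485 of 5912 protein-coding genes tested (42.0%). It was also in 12 of 17 iron saving and storage genes (70.6%), whose median was -0.04, and in 6 of 23 iron uptake genes (26.1%). TGCACC was in 7 of the 45 genes of the chain and the ATP synthase (15.6%), against 6.95% of those tested. These letters are short and common, and no binding was measured.

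SDH1, the flavoprotein subunit of succinate dehydrogenase (chromosome XI, 169207 to 171129), had 136 and 129 FPKM in wild type, 64.04 and 112 in D8A, then 28.1 and 28.0 in D8B. It fell by 2.20 ± 0.27 (SE; limma adjusted p = 0.00437). NDE1, the external NADH dehydrogenase, fell by 2.20 ± 0.23, from 423 and 514 FPKM to 95.0 and 106 (limma adjusted p = 0.00248), and D8A held 174 and 220. CYC7, the minor cytochrome c, fell by 2.12 ± 0.23, from 80.1 and 67.5 FPKM to 18.3 and 14.2, with D8A at 17.9 and 24.1 (limma adjusted p = 0.00248). These 3 calls were kept whichever library was left out. CYT1, cytochrome c1, had 155 and 139 FPKM in wild type, 83.5 and 143 in D8A, then 43.2 and 36.4 in D8B, a change of -1.86 (limma adjusted p = 0.0101). COX4 (-1.68), COX6 (-1.61), CYB2 (-1.36), RIP1 (-1.33) and NDI1 (-1.02), subunits of cytochrome c oxidase, the lactate dehydrogenase, the Rieske protein and the internal NADH dehydrogenase, fell with limma adjusted p from 0.0155 to 0.0472. CYT1 and these 5 lost their calls without either wild-type library or without D8B replicate 2, and the 5 also without D8B replicate 1 (limma adjusted p up to 0.326). CYC1, the major cytochrome c, had 1114 and 841 FPKM in wild type and 371 and 163 in D8B and did not pass (-1.97, limma adjusted p = 0.0718).

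The median of these 45 genes less the wild-type mean was -0.76 in D8A replicate 1 and 0.08 in D8A replicate 2, beside -0.91 and -1.21 in D8B, with 4 of the genes called lower in D8A against wild type. Over all features D8A had 350 calls against wild type (5.05%), 85 higher (1.23%) and 265 lower (3.83%). Of the 45 genes, 24 were lower in both D8B than in both D8A libraries, against 15.1% of all features. In limma 0 passed between D8B and D8A, with 17 lower at an unadjusted p under 0.05, against 308 of all 6925 features. SDH1 differed between the null strains by -1.56 (limma adjusted p = 0.0770) and NDI1 by -1.25 (limma adjusted p = 0.0767). Both comparisons share the D8B libraries.

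**Figure D3:**
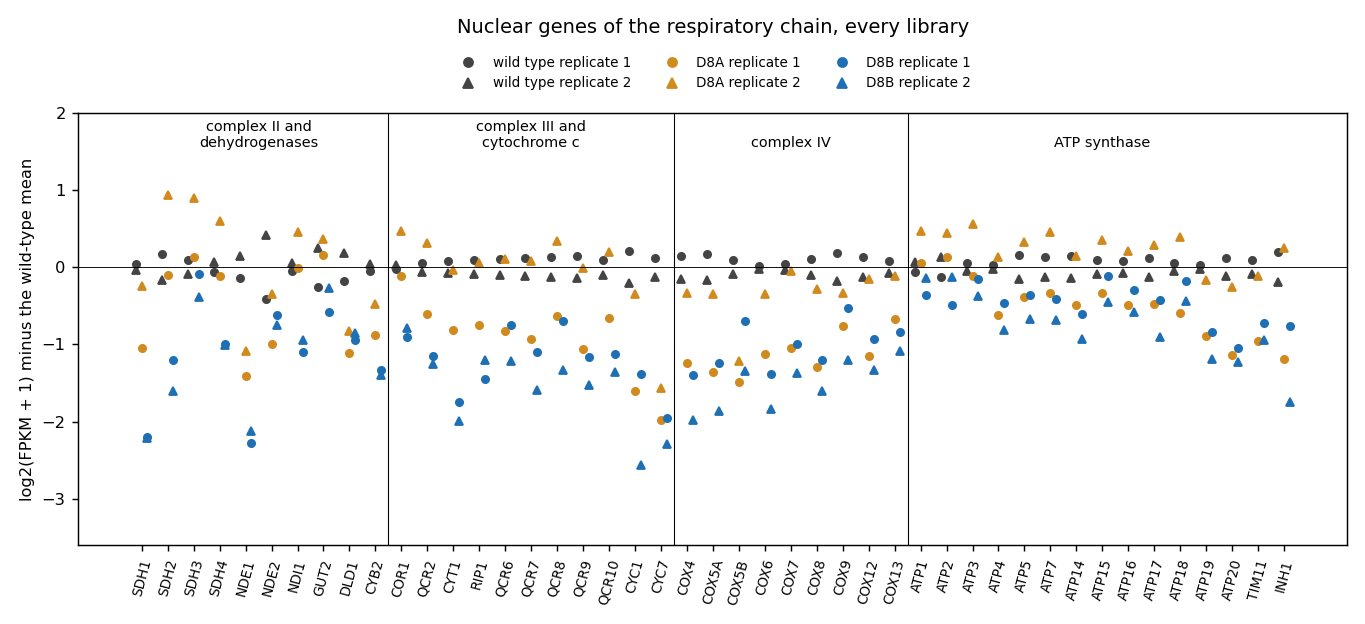
For each nuclear gene of the respiratory chain and the ATP synthase, log2(FPKM + 1) minus the wild-type mean, with a point for each of the 6 libraries (circles replicate 1, triangles replicate 2). The blue D8B points lie below the grey wild-type points in 44 of 45 genes, and the orange D8A points range from above wild type to the level of D8B.

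Lists of other mitochondrial functions held few calls. ACO1, the iron-sulphur enzyme aconitase, had 363 and 467 FPKM in wild type and 130 and 160 in D8B and was the only gene of 16 in the tricarboxylic acid cycle to pass (-1.51 ± 0.26 SE, limma adjusted p = 0.0177). It lost its call without either wild-type or either D8B library (limma adjusted p up to 0.191). Of 66 mitochondrial ribosome genes 0 passed in limma, and 8 were lower at an unadjusted p under 0.05, against 11.0% of all features. In this list 42 lay apart as lower, against 25.9% of all features. The median was -0.28, or -0.42 without D8B replicate 1 and -0.16 without replicate 2. TIM9 (-1.38, 264 bp, of which 170 bp overlap YEL020C-B) was the only call among 24 import genes, and haem synthesis had 0 of 10, with 2 lower at an unadjusted p under 0.05. Among 9 retrograde targets PDH1, of propionate breakdown, fell (-1.32). TIM9 and PDH1 lost their calls without either wild-type or either D8B library (limma adjusted p up to 0.357). The 55 mitochondrially encoded features were listed at 0 in all 6 libraries, so the subunits encoded there were not measured.

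Some genes used when glucose runs low fell in D8B. Of 22 glucose-repressed genes 4 fell, against 3.68% of all features, and the median was -0.53. They were SIP4, a gluconeogenic regulator (-1.61), POT1, of fatty acid oxidation (-1.36), IDP2 (-1.20) and MDH2 (-1.10). HXT1, the low-affinity glucose transporter induced by high glucose, had 68.7 and 65.5 FPKM in wild type, 173 and 139 in D8A, then 191 and 217 in D8B, a rise of 1.58 ± 0.22 (SE; limma adjusted p = 0.00648). HXT3, another low-affinity carrier, fell by 1.47, from 193 and 176 FPKM to 52.1 and 83.5 (limma adjusted p = 0.0232). GPH1, glycogen phosphorylase, fell by 2.21 and the glycogen synthase GSY1 fell by 1.45, the only calls among 21 genes of trehalose and glycogen. Of 25 glycolytic and fermentative genes 0 passed in limma, with 3 higher at an unadjusted p under 0.05. GPH1 kept its call whichever library was left out (it shares 285 bp with YPR160C-A), and the others of this paragraph lost theirs without either wild-type library and without at least 1 of the D8B libraries (limma adjusted p up to 0.387).

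Of 30 general stress genes 3 fell, PIR3, HSP12 and USV1, and the median was -0.43, or -0.03 without D8B replicate 2. In limma 0 rose, and over all features 3.68% fell and 1.21% rose. At an unadjusted p under 0.05, 10 were lower and 2 higher, against 11.0% and 8.01% of all features. HSP12, a membrane-associated heat shock protein, had 240 and 399 FPKM in wild type, 37.0 and 125 in D8A, then 50.9 and 51.6 in D8B, a change of -2.57 ± 0.52 (SE; limma adjusted p = 0.0325, lost without either wild-type or either D8B library). USV1, a regulator of growth on other carbon sources, fell by 1.29 and lost its call without wild-type replicate 2 or either D8B library. Chaperones had 0 calls of 22 in limma and 3 lower at an unadjusted p under 0.05, against 11.0% of all features.

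Of 24 targets of Yap1, 3 rose, TRX2, HBN1 and CCP1, against 1.21% of all features, and the median was 0.35. In this list 15 lay apart as higher and 2 as lower, against 30.0% and 25.9% of all features. In limma 0 fell, also at an unadjusted p under 0.05, where 8 were higher, against 8.01% of all features. TRX2, the cytosolic thioredoxin induced by peroxide, had 1220 and 932 FPKM in wild type, 3997 and 5594 in D8A, then 7943 and 4913 in D8B. It rose by 2.55 ± 0.34 (SE; limma adjusted p = 0.00578), a call lost without wild-type replicate 2 (limma adjusted p = 0.0783). CCP1, the mitochondrial cytochrome c peroxidase, had 197 and 173 FPKM in wild type and 544 and 438 in D8B (1.40 ± 0.31, limma adjusted p = 0.0474), and HBN1, a nitroreductase-like protein, had 22.3 and 34.2 and then 89.0 and 96.0 (1.71 ± 0.25, limma adjusted p = 0.00834). CCP1 was lost without either wild-type or either D8B library, and HBN1 without wild-type replicate 1 or D8B replicate 2 (limma adjusted p up to 0.340). Of 26 antioxidant enzymes and thioredoxins only TRX2 and CCP1 passed, and the median was 0.09, or -0.01 without D8B replicate 1 and 0.20 without replicate 2.

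Amino acid synthesis under Gcn4 held the most falls of the lists used. Of 42 biosynthetic genes under Gcn4, the activator of amino acid synthesis, 16 fell and 0 rose in limma, and the median was -0.74. Over all features 3.68% fell and 1.21% rose. At an unadjusted p under 0.05, 27 were lower and 1 higher, against 11.0% and 8.01% of all features. In this list 32 lay apart as lower and 2 as higher, against 25.9% and 30.0% of all features. LEU1, isopropylmalate isomerase and itself an iron-sulphur enzyme, had 522 and 619 FPKM in wild type, 81.8 and 102 in D8A, then 63.3 and 78.5 in D8B, a change of -2.99 ± 0.24 (SE; limma adjusted p = 0.000607). BAT1, the mitochondrial branched-chain aminotransferase, fell by 2.22, from 1028 and 1197 FPKM to 217 and 261 (limma adjusted p = 0.00239). ARG4, of arginine synthesis, fell by 2.22 (limma adjusted p = 0.00412), and SER3, of serine synthesis, fell by 1.97 (limma adjusted p = 0.00392). LEU1, BAT1, ARG4 and SER3 kept their calls whichever library was left out. D8A had 22 falls and 1 rise against wild type among the same 42 genes, against 3.83% and 1.23% of all features. That comparison shares the wild-type libraries. The strains also differ in the auxotrophic markers given above, and the part of those in these changes was not tested.

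Of 27 genes of sulphur amino acids 5 fell, against 3.68% of all features, and the median was -0.66. They were MET17 (-2.44), MET13 (-1.60), MET16 (-1.57), STR2 (-1.46) and MET8 (-0.99). In limma 0 rose, also at an unadjusted p under 0.05, where 16 were lower, against 11.0% of all features. MET17, the labelled met15 marker, had 456 and 580 FPKM in wild type and 90.6 and 98.1 in D8B, and it was the only one of the 5 to keep its call whichever library was left out. The other 4 lost theirs without wild-type replicate 2, and MET16 and MET8 also without wild-type replicate 1 or either D8B library (limma adjusted p up to 0.263). Of 30 genes of nitrogen catabolism 10 fell and CHA1 rose, against 3.68% and 1.21% of all features, and the median was -0.39. GAP1, the general amino acid permease, had 207 and 168 FPKM in wild type, 24.8 and 24.4 in D8A, then 21.8 and 23.0 in D8B, a change of -3.01 ± 0.19 (SE; limma adjusted p = 0.000244). DAL80, a repressor of nitrogen genes, fell by 3.07 (it shares 407 bp with YKR033C), PUT1, proline oxidase, fell by 3.04, and DAL4, the allantoin permease, fell by 1.90. ASP3-1, a secreted asparaginase in a cluster of near-identical copies that share reads, fell by 2.55. Without wild-type replicate 2, DAL4 lost its call (limma adjusted p = 0.0544), and the other genes named here from nitrogen catabolism kept theirs in every such omission.

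Cell surface and metal genes moved in both directions. Of 40 cell wall genes 7 fell and 3 rose, against 3.68% and 1.21% of all features. The median was -0.53, or -0.27 without D8B replicate 1. SED1, a major structural wall protein, had 2400 and 4557 FPKM in wild type, 885 and 1007 in D8A, then 473 and 623 in D8B, a change of -2.60 ± 0.35 (SE; limma adjusted p = 0.00590). CWP1 (-2.51), PST1 (-1.68) and CRH1 (-1.42), also of the wall, fell, while the mannoproteins TIR1 and TIP1 rose by 1.86 and 1.65 beside GAS2. PIR3, SED1 and GAS2 kept their calls in every omission of a library. CWP1, PST1, CRH1, TIR1 and TIP1 lost theirs without wild-type replicate 2 or D8B replicate 2, and CWP1, CRH1, TIR1 and TIP1 also without wild-type replicate 1, and PST1, CRH1 and TIR1 without D8B replicate 1 (limma adjusted p up to 0.287). ZRT1, the high-affinity zinc transporter, had 109 and 108 FPKM in wild type, 46.4 and 48.2 in D8A, then 21.6 and 32.3 in D8B, a change of -1.99 ± 0.23 (limma adjusted p = 0.00334). It was, with IZH4, the only call among 19 genes of zinc and copper. PHO5, the repressible acid phosphatase (-1.14), and GIT1, a glycerophosphoinositol transporter (-1.88), fell among 20 phosphate genes, and both calls were lost without either wild-type or either D8B library.

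Of 26 ergosterol genes, ERG3 and ERG4, which act late in the pathway, rose, and 0 fell in limma (1 was lower at an unadjusted p under 0.05). ERG3 had 498 and 451 FPKM in wild type, 479 and 363 in D8A, then 1147 and 1117 in D8B, a rise of 1.25 ± 0.24 (SE; limma adjusted p = 0.0295). ERG4 had 176 and 174 FPKM in wild type, 162 and 170 in D8A, then 376 and 352 in D8B, a rise of 1.05 ± 0.21 (limma adjusted p = 0.0297). Both D8B libraries thus stood above the other 4 in both genes, yet the difference from D8A did not pass (limma adjusted p = 0.0762 and 0.0856). The calls against wild type were lost without either wild-type or either D8B library (limma adjusted p up to 0.295), and the median of the 26 genes was -0.01. FAA1, a fatty acyl-CoA synthetase, fell by 1.57 as the only call among 26 lipid genes. PDR3, a regulator of drug pumps, rose by 1.02, and the polyamine transporter TPO1 (-1.26) and RTA1 (-1.64) fell, among 12 drug resistance genes. Without wild-type replicate 2, FAA1, PDR3, TPO1 and RTA1 each lost their calls. TPO1 and PDR3 also lost theirs without either D8B library, and PDR3 without wild-type replicate 1 (limma adjusted p up to 0.214).

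Lists of the growth machinery held no calls. Of 45 ribosome biogenesis genes 0 passed in limma, with 7 higher and 0 lower at an unadjusted p under 0.05, and the median was 0.32. In both D8B libraries 30 of them lay above both wild-type libraries and 0 below, against 30.0% and 25.9% of all features. For the 33 proteasome genes these values were 0 passed, 3 higher and 0 lower at an unadjusted p under 0.05, a median of 0.23, and 19 above and 0 below. The 137 cytosolic ribosome genes had a median of -0.05, with 0 passed in limma and 1 lower at an unadjusted p under 0.05, although D8B replicate 1 lay above and replicate 2 below wild type. Histones (11) had 0 in limma by either p, and DNA damage genes (17) had 0, with 3 higher and 1 lower at an unadjusted p under 0.05. In purine synthesis ADE2 rose (1 of 18) and in pyrimidine synthesis URA3 fell (1 of 13), both marker genes of the labels.

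**Figure D4:**
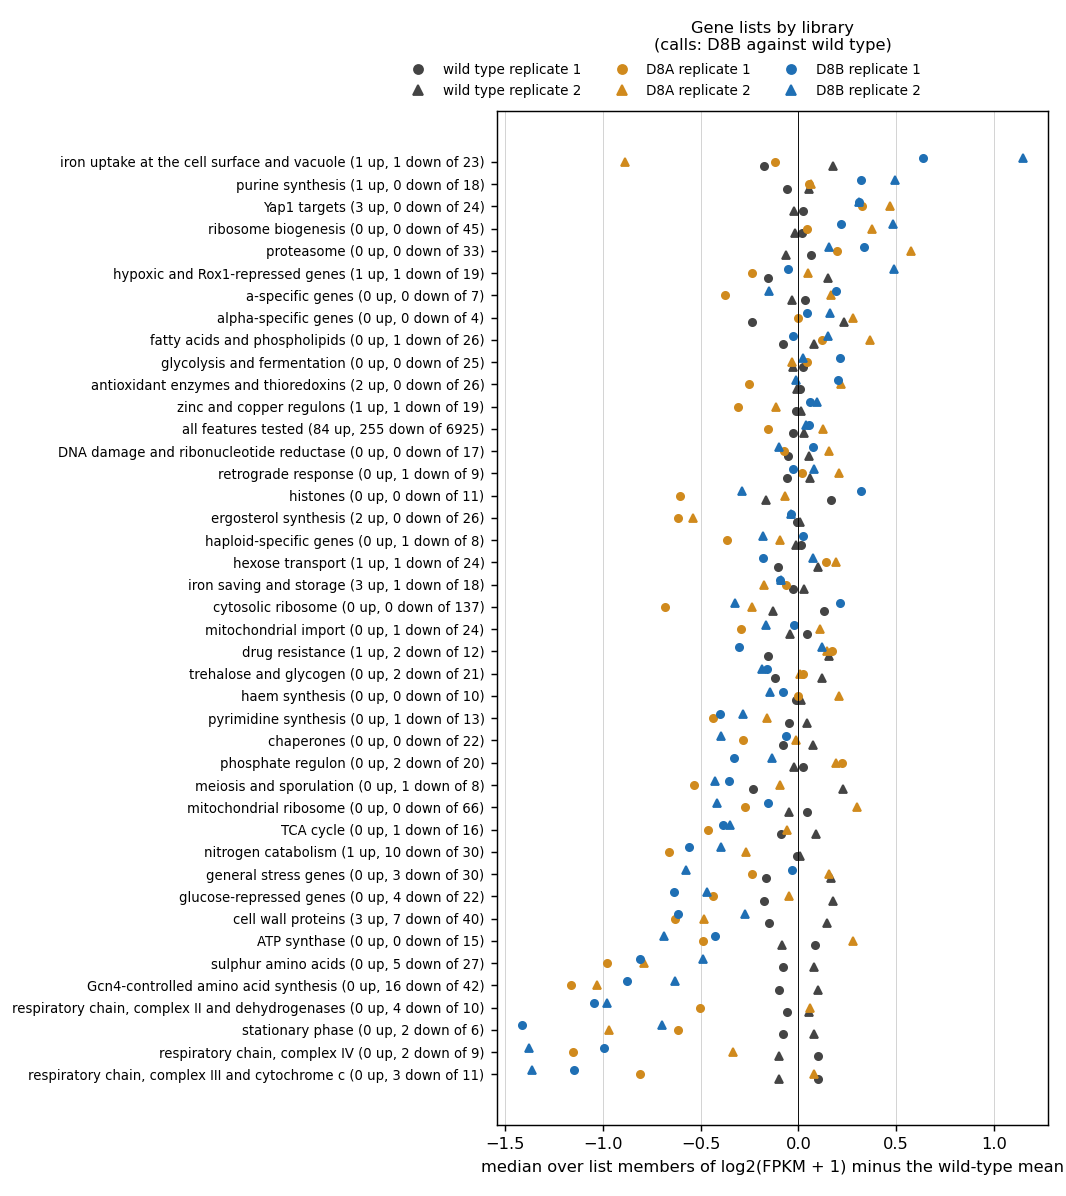
For each gene list, the median over its members of log2(FPKM + 1) minus the wild-type mean, with a point for each library (circles replicate 1, triangles replicate 2). Counts in the row labels are limma calls of D8B against wild type out of the members tested. Iron uptake has both D8B points at the right end (0.63 and 1.15), and complexes II, III and IV and the stationary phase markers have them toward the left end. The deleted and marker genes are not plotted.

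Markers of cell state were checked against the labels. Genes specific to a cells summed to 7655 and 7779 FPKM in wild type and 11170 and 7338 in D8B, whereas those specific to alpha cells summed to 47.1 and 48.8 and to 52.1 and 52.7, with 0 of 7 and 0 of 4 passing in limma and, at an unadjusted p under 0.05, 0 of the former and 1 of the latter. FUS3, the mating MAP kinase, fell by 1.19 among 8 haploid genes. Meiosis genes summed to at most 60.5 FPKM in any library, and SPS1 fell by 1.82 among 8. Stationary phase markers summed to 1444 and 1747 FPKM in wild type, 892 and 918 in D8A, then 578 and 910 in D8B. Of these 6 markers HSP12 and SNO1 (-1.22) fell. HSP26 went the other way without passing, with 20.1 and 30.9 FPKM in wild type and 48.1 and 42.0 in D8B, and SPG1 did not pass either (-0.25). At an unadjusted p under 0.05, 4 of the 6 were lower and 1 higher, against 11.0% and 8.01% of all features. FUS3 and SNO1 lost their calls without either wild-type or either D8B library, and SPS1 without wild-type replicate 2 or D8B replicate 1 (limma adjusted p up to 0.316). The median of the 6 less the wild-type mean was -0.61 and -0.97 in D8A, beside -1.41 and -0.70 in D8B. For the 45 respiratory genes the D8A values were -0.76 and 0.08, and whether the lists share a cause was not tested.

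Against D8A, 23 of 6925 features differed by limma adjusted p (0.332%). D8B was higher in 15 (0.217%) and lower in 8 (0.116%). With centred libraries the split was 10 and 8, and with quantile normalisation 8 and 8. Of the 23, 11 also differed from wild type in the same direction (0.159% of features), 7 higher (0.101%) and 4 lower (0.0578%). They form the class of changes of D8B not seen in D8A. Both comparisons share the D8B libraries, so the class is a definition and no independent evidence. It holds 1 gene from the lists above besides URA3, the mannoprotein TIR1.

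YBR012C and YBR013C, both on chromosome II (259147 to 259566 and 265492 to 265881), held almost no signal outside D8B. YBR013C was listed at 0 in both wild-type and both D8A libraries and held 91.8 and 68.2 FPKM in D8B (limma adjusted p = 5.35e-05 against wild type and 0.000107 against D8A). YBR012C was at 0 and 0.457 FPKM in wild type, listed at 0 in D8A, and held 54.9 and 112 FPKM in D8B (limma adjusted p = 0.000338 and 0.000608). The features between them in the files are YBR012W-A and YBR012W-B, of a Ty retrotransposon. The nearest named protein-coding genes on the outer sides, IPP1 (616 and 711 FPKM in wild type, 836 and 844 in D8B) and GRX7 (80.6 and 87.7, then 106 and 79.5), were measured in all strains. So reads at YBR012C and YBR013C appeared only in D8B apart from the trace in wild-type replicate 2, on both sides of the Ty element. Both calls were kept in every omission and under every alternative run.

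YCL021W-A on chromosome III (83620 to 83997) was nearly without signal in D8B. It had 35.7 and 46.5 FPKM in wild type, 61.3 and 60.5 in D8A, then 0.405 and 0 in D8B, a change of -5.14 ± 0.25 (SE; limma adjusted p = 4.15e-05 against wild type and 3.75e-05 against D8A). It lies between the tRNA feature tE(UUC)C and the Ty feature YCL019W, with LEU2 further along. LEU2, a disruption marker at tsa2, had 141 and 137 FPKM in wild type, 63.9 and 56.5 in D8A, then 147 and 145 in D8B. YHL008C, of unknown function and next to the Ty feature YHL009W-B on chromosome VIII, had 3.32 and 3.76 FPKM in wild type, 2.66 and 3.18 in D8A, then 15.9 and 19.1 in D8B, a rise of 2.02 ± 0.26 (limma adjusted p = 0.00519, and 0.0511 without D8B replicate 2). YBR012C, YBR013C, YCL021W-A and YHL008C thus lie beside Ty features in the R64 annotation. These neighbours were looked up after the class was known, and Ty copies share reads. How many of all features lie beside a Ty feature was not counted.

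YHL015W-A, an 84 bp feature upstream of RPS20, was listed at 0 in wild type and D8A and held 268 and 238 FPKM in D8B. FPKM of features this short are inflated in these files, with a median ratio of FPKM to the midpoint of the deposited interval between 33.7 and 53.8 for features under 150 bp, and with midpoints in place of FPKM the difference from D8A did not pass. YGR114C had 6.03 and 7.63 FPKM in wild type, 8.01 and 7.41 in D8A, then 31.1 and 33.0 in D8B (2.08 ± 0.21, limma adjusted p = 0.00230). It shares 283 bp with YGR115C and also overlaps SPT6. YOR203W shares 44 bp with the marker gene HIS3 and had 60.9 and 62.9 FPKM in wild type, 26.4 and 44.5 in D8A, then 178 and 147 in D8B (1.37 ± 0.27, limma adjusted p = 0.0311).

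TIR1, a wall mannoprotein known from cold and from low oxygen, had 22.6 and 37.9 FPKM in wild type, 18.6 and 9.07 in D8A, then 96.2 and 123 in D8B. It rose by 1.86 ± 0.36 against wild type (SE; limma adjusted p = 0.0295) and differed from D8A by 2.97 (limma adjusted p = 0.0226). It was the only rise among 19 hypoxic and Rox1-repressed genes, of which CYC7 fell and the median was 0.20, but -0.06 without wild-type replicate 1 and -0.05 without D8B replicate 2. URA3, of pyrimidine synthesis and a deletion marker at prx1 and gpx1, had 158 and 145 FPKM in wild type, 209 and 294 in D8A, then 70.5 and 59.1 in D8B (-1.21 against wild type and -1.92 against D8A, limma adjusted p = 0.0318 and 0.0233). Its neighbour TIM9 fell too, from 861 and 738 to 341 and 275 FPKM, with D8A at 594 and 859. GEA2 on the other side did not, with 18.1 and 25.1 FPKM in wild type and 25.7 and 48.9 in D8B. Further out on the side of GEA2, RIP1 fell, from 230 and 202 to 78.6 and 92.9 FPKM. Beyond TIM9, YEL020C did not fall, with 11.6 and 15.3 FPKM in wild type and 13.1 and 15.4 in D8B. TIR1, YOR203W and URA3 lost the call against wild type without either wild-type or either D8B library (limma adjusted p up to 0.209), and TIR1 also with centred or quantile-normalised libraries. YAR070C and YHR214C-E, members of similar subtelomeric regions whose reads can be shared, fell, with changes of -2.28 and -2.07 (limma adjusted p = 0.0177 and 0.00390), the former losing its call without wild-type replicate 2 or D8B replicate 1 (limma adjusted p up to 0.0821).

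**Figure D5:**
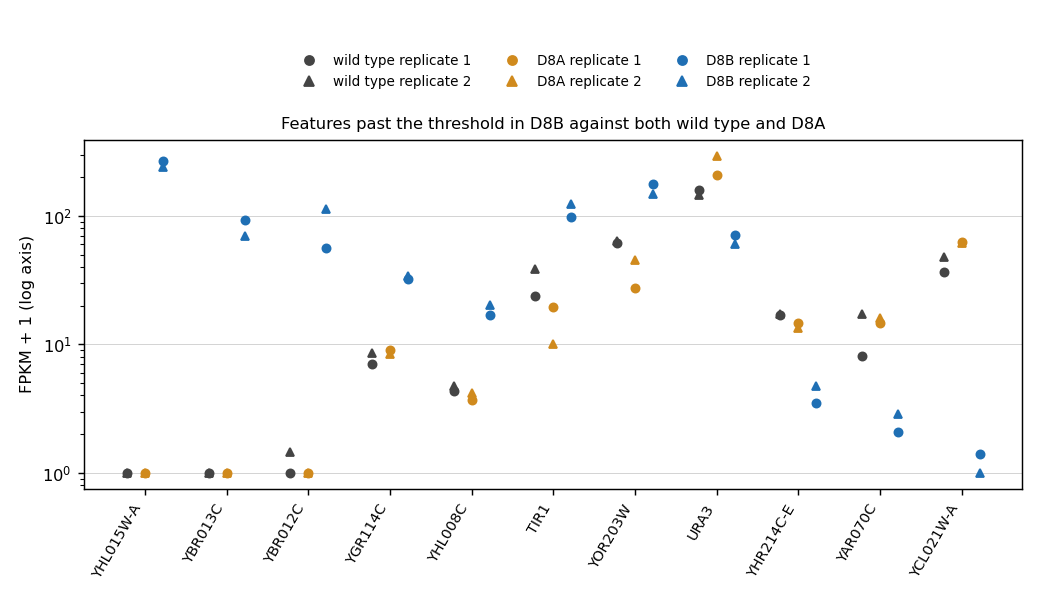
FPKM + 1 on a log axis for the 11 features that differed in D8B from both wild type and D8A in the same direction, with a point for each library (circles replicate 1, triangles replicate 2). A value of 1 on the axis is a feature listed at 0, as for YBR013C in all 4 wild-type and D8A libraries. The features were chosen for this separation.

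The study's title concerns aneuploidy, so the level of each chromosome was compared, as the median of its log2 differences less that of the other chromosomes. Chromosome V stood at 0.13 in D8B against wild type, with D8B replicates at 0.08 and 0.22, wild-type replicates at -0.01 and 0.01 and D8A at -0.08. The value was 0.22 without D8B replicate 1 and 0.08 without replicate 2. Of its 350 features, 43.1% were higher in both D8B libraries than in both wild-type libraries against 30.0% over all features, and 5 passed as higher and 10 as lower. The 15 other chromosomes lay between -0.11 and 0.06, and chromosome XI, named in the source label of wild type, at 0.02. Of the 364 features of chromosome XI, 35.7% lay apart as higher in D8B and 28.0% as lower, against 30.0% and 25.9% over all features.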

How the data were processed

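Polyadenylated RNA of 6 libraries was measured by RNA sequencing. Per the submitters' processing notes the tools were Bowtie2 2.1.0, TopHat2 2.0.9 and Cufflinks 2.1.1 with build R64. The deposited values are FPKM with the bounds of a confidence interval, per the file headers, and no source used here states whether counting used strand. Of 7126 features, 61 were marked as low data and 14 as too many reads in some library and were left out. Of the identifiers, 6048 were found in RefSeq R64, 6036 with the same coordinates, and sequences were read from that genome.

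Groups follow the titles. Features with a mean of at least 1 FPKM were kept. One mean per group was fitted to log2(FPKM + 1) of all 6 libraries by limma 3.58.1 (R 4.3.3), using trended moderated variances (3 residual and 4.7 prior degrees of freedom), two-sided tests and Benjamini-Hochberg adjustment over 6925 features. A pseudocount of 1 understates the change of low genes. No count model was used, since FPKM are not counts, and a value of 0 is described as listed at 0. The fit was tested on simulated data, drawn as normal values with the spread of the fit itself, which cannot test the effect of zeros or of library differences. Depth came from the steps of the interval bounds, of which 83.6% to 91.3% per library were whole multiples within 0.02, and it limits low genes most in D8A replicate 1.

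Genes were named by a rule. It takes the 8 largest rises and 8 largest falls against wild type among features of at least 300 bp and a mean of at least 10 FPKM whose libraries do not overlap, and the class against both wild type and D8A. It adds deleted and marker genes, up to 5 called members of each list, those needed for small counts, and any member of the iron and respiratory lists. Of the genes that the rule names, 1 is not reported here. The members and lists were chosen with earlier results of these data known. Alternatives were the pseudocount, filters, scaling, the variance model, the samples fitted, interval midpoints, a replicate block and leaving out each library. Python 3.11.15, pandas 2.3.3 and matplotlib 3.10.9 made the summaries and figures.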

Additional observations from a re-analysis of the deposited data

Results flagged for a closer look

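The features below differed between D8B and D8A in limma, as a test of whether the change of each strain against wild type is the same. All 17 of 300 bp or more are given, with the 84 bp YHL015W-A, and 5 other short features past the threshold are not named. Values are D8B minus D8A on the log2(FPKM + 1) scale unless stated.

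Of the features that also differed from wild type, YBR012C and YBR013C averaged 83.6 and 80.0 FPKM in D8B and YHL015W-A 253 FPKM, and all 3 were listed at 0 in D8A. YCL021W-A differed by -5.71, TIR1 by 2.97, YHL008C by 2.24, YOR203W by 2.20, YGR114C by 1.92, URA3 by -1.92, YAR070C by -2.65 and YHR214C-E by -1.79. YBR012C, YBR013C, YCL021W-A and YHL015W-A kept this call whichever library was left out, with a limma adjusted p of at most 0.0107. The others lost it without D8B replicate 1 and without D8B replicate 2, URA3 and YHR214C-E also without either wild-type library, YAR070C and YHR214C-E without either D8A library and YHL008C without D8A replicate 1 (limma adjusted p up to 0.159).

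The remaining 7 did not pass in D8B against wild type. PHO89, a sodium-coupled phosphate transporter, differed by -1.94, with 86.1 and 111 FPKM in wild type, 226 and 270 in D8A, then 56.5 and 72.2 in D8B. ARO10, a decarboxylase of aromatic amino acid breakdown, differed by -2.24, with 59.2 and 61.2 FPKM in wild type, 138 and 205 in D8A, then 29.3 and 41.4 in D8B. AAD6 and AAD16, adjacent features of 1 aryl-alcohol dehydrogenase pseudogene, differed by -2.23 and -2.12. ERG28, an ergosterol scaffold protein, differed by 1.60, with 388 and 313 FPKM in wild type, 90.0 and 81.2 in D8A, then 269 and 253 in D8B. FTR1 differed by 1.74 and YLR349W, which shares 353 bp with YLR348C, by 1.43. Without either D8B library each of these 7 lost its call, ERG28, FTR1 and YLR349W also without either wild-type library, and AAD6, AAD16, ERG28 and YLR349W without D8A replicate 1, and YLR349W also without D8A replicate 2 (limma adjusted p up to 0.201).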

How the results depend on the processing

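No result changed direction past its threshold under the alternatives run. Features changed in D8B against wild type numbered 339, with 175 without the filter, 817 with the fit limited to features of 300 bp or more, 632 with robust variances and 595 with interval midpoints, and from 98 to 477 with a library left out. Against D8A the 23 became 11, 197, 116 and 84 under the same settings, and from 10 to 104 with a library left out. The class against both, 11, became 7, 90, 52 and 37, and from 5 to 26. The fit of features of 300 bp or more had 247 prior degrees of freedom, so its spread is nearly common to all genes. Of the 23 features differing from D8A, 15 were higher and 8 lower, against 10 and 8 with centred and 8 and 8 with quantile-normalised libraries.

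Replicate numbers are shared between groups, but same-numbered libraries did not deviate together throughout (correlation of deviations 0.33 for D8B and wild type, -0.25 for D8B and D8A, -0.15 for D8A and wild type), so the numbers are not taken as pairs. With the replicate number as a block, 213 features differed from wild type, 9 from D8A and 4 from both.

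Of 99 named genes called against wild type, 54 lost the call without wild-type replicate 2, 41 without replicate 1, 40 without D8B replicate 1, 45 without D8B replicate 2, 37 without the filter, 29 with the block and at most 11 under any other alternative. With centred libraries ARN2, LSO1, TIR1, PHO5 and SNO1 lost theirs, and with quantile normalisation these and MRS4, SIP4, HXT3, HSP12 and ERG3. The cause of these losses was not tested. With 2 libraries per group and as few as 4.02 M fragments, a gene that missed the threshold is not shown to be unchanged.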
